A study of Mus musculus with 8 samples.

Results

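The cyclins and cyclin-dependent kinases (CDKs) that carry a cell through G1 and S phase were followed in TTE3 cells during 24 h at 39 °C. The set was every probe set whose platform gene symbol is Ccnd1, Ccnd2, Ccnd3, Ccne1, Ccne2, Ccna2, Cdk1, Cdk2, Cdk4 or Cdk6. These are 10 of the 12393 genes named on the array, with 21 of the 22626 probe sets that are not controls: 7 for Ccnd2, 3 each for Ccnd1 and Cdk4, 2 for Ccna2 and 1 for each of the other genes. The filter on dim probe sets passed 20 of them, and the Cdk6 probe set did not pass. Probe sets of 1 gene share its transcripts and are repeated readings of that gene, not replicates of a condition.

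TTE3 is a line of Sertoli cells, the somatic nurse cells of the seminiferous tubule, from mice with a transgene for an SV40 large T-antigen that is temperature-sensitive. All cells carry the transgene, and its promoter is not given in the sources used here. RNA was taken after 0, 6, 12 and 24 h at 39 °C, the temperature at which the T-antigen is not active, and hybridised to Affymetrix 430A mouse arrays, with 2 samples and 2 arrays per time. A culture kept at the permissive temperature for the same hours was not analysed here, so heat, hours of culture and the state of the T-antigen cannot be told apart. The labels do not tell whether the 2 samples of a time were grown separately, and a p-value here therefore covers only how far these samples differ, which may be technical.

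In mammalian cells the D-type cyclins are made in answer to growth signals and activate CDK4 and CDK6, which begin to phosphorylate the retinoblastoma protein. E-type cyclins with CDK2 complete that step and start DNA replication, and cyclin A then serves S phase with CDK2 and the approach to mitosis with CDK1. Large T-antigen binds the retinoblastoma family and p53, and so acts on the same switch. In the testis, Sertoli cells divide before puberty and then leave the cell cycle as they mature.

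The arrays were alike in scale, with median signals of 138 to 154.3 units, and same-time arrays correlated across all probe sets with r between 0.9788 and 0.9858. Some arrays of different times were nearly as close, such as 6 h replicate 2 and 12 h replicate 1 (r = 0.9787). Signals of actin probes at the 3′ end were 1.03 to 1.133 times those at the 5′ end, and those of Gapdh probes 0.7175 to 0.8053 times, as a sign of RNA quality. Of 15 Sertoli markers 14 had a named probe set, of which 7 passed the filter, and their summed signal was 3864.9 to 4095.8 units at 0 h, 4351.6 to 5400.8 at 6 h, 4644.9 to 5377.1 at 12 h and 6365.2 to 7033.9 at 24 h. The markers Amh, Cldn11 and Gdnf averaged below 21.9 units, the offset added before logs were taken, and the higher sum at 24 h came mainly from Clu, at 4204.9 and 3323 units at 24 h against 1394.6 and 1336.8 at 0 h. The 5 germ cell markers summed to 353.4 to 429.9 units at 0 h, 365.8 to 409.9 at 6 h, 608.9 to 645 at 12 h and 1297.2 to 1351.3 at 24 h. Kit gave 252.7 and 348.8 of these units at 0 h, 221.7 and 310 at 6 h, 504.4 and 511.4 at 12 h, and 1224.7 and 1222.3 at 24 h, while Dazl and Sycp3 averaged below the offset. The 4 Leydig markers on the array summed to 96.8 to 157.9 units at 0 h, 141 to 160.7 at 6 h, 155.1 to 168.9 at 12 h and 248 to 326.1 at 24 h, mainly from Star, with Cyp17a1 and Cyp11a1 below the offset. The 4 macrophage markers summed to 399.9 to 498 units at 0 h, 338.2 to 433 at 6 h, 430.3 to 446.7 at 12 h and 513.1 to 518.8 at 24 h. Among them Cd68 had 321 and 299.1 units at 24 h against 175.9 and 224.9 at 0 h. Csf1r went the other way, with 120.2 and 125.2 units at 24 h against 164 and 169.6 at 0 h. The Adgre1 arrays of these times overlapped, and Ptprc averaged below the offset. The 4 endothelial markers, all too dim to be tested, summed to 146.1 to 148.4 units at 0 h, 122.6 to 127.8 at 6 h, 102 to 153.6 at 12 h and 181.3 to 213.2 at 24 h. Pecam1 had 55.6 and 70.7 units at 24 h against 10.9 and 9.5 at 0 h, while the arrays of these times overlapped for Cdh5, Kdr and Tek. The 5 peritubular myoid markers, of which 2 averaged below the offset, summed to 282.7 to 347.3 units at 0 h, 360.9 to 373.5 at 6 h, 273.2 to 510.4 at 12 h and 270.6 to 358.8 at 24 h. The part of these markers in the results that follow was not tested. In RNA from a whole culture, fewer cells of a kind and less RNA per cell cannot be told apart.

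The stretches upstream of Cdk1, Cdk2 and Cdk4 are shown because these kinases are of 1 family and Cdk1 was called as changed over the 4 times, while no test called Cdk2 or Cdk4, a difference that was not itself tested. The Cdk1 call was lost in several alternative fits, among them the F-test without a variance trend (adjusted p 0.0643). Each is the 250 bases before the annotated start, written 5′ to 3′ on the strand of the gene, from RefSeq on GRCm38.p6. Capitals mark 3 words searched on both strands: TTTGAA (the core of the cell cycle homology region, CHR), CCAAT, and the E2F words TTTCCCGC, TTTCGCGC, TTTGCCGC and TTTGGCGC, none of which overlap here. Cdk1 is at chr10:69352913-69353162 (minus strand), Cdk2 at chr10:128705052-128705301 (minus strand) and Cdk4 at chr10:127063285-127063534 (plus strand).
Cdk1: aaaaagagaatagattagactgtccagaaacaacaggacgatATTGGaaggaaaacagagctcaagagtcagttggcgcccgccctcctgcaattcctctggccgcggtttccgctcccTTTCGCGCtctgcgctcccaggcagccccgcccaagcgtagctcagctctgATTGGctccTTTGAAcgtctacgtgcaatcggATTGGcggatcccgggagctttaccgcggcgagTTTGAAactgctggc
Cdk2: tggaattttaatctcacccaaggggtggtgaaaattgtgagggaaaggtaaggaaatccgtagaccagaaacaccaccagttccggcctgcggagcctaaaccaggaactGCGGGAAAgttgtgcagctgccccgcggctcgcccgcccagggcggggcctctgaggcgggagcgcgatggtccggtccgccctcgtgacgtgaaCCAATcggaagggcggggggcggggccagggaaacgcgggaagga
Cdk4: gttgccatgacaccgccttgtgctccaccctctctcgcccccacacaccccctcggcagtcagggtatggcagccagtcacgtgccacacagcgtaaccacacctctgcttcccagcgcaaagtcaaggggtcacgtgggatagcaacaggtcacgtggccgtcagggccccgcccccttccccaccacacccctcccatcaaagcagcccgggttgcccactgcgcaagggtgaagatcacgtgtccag
The Cdk1 stretch holds 2 CHR words, 3 CCAAT words and 1 E2F word. The Cdk2 stretch holds 1 CCAAT word and 1 E2F word, and the Cdk4 stretch holds none of the words. Entries were given for 6 of the 10 genes, 7 entries in all. There were none for Ccnd1, Ccnd2, Ccne2 and Ccna2, which the F-test also called. Of the entries not printed, Ccne1, Cdk6 and the first of the 2 Ccnd3 entries hold none of the words. The second Ccnd3 entry holds 1 CCAAT word, and Ccnd3 was called by the F-test (adjusted p = 0.0202). Whether the words go with a call was not tested. Among 32851 mouse promoters, in a window of 250 bases before and 50 from the start, 17.9% hold a CHR word, 37.4% a CCAAT word, 2.26% an E2F word and 6.95% both CHR and CCAAT. The words describe the sequence and show no binding.

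All values are intensities in array units as deposited, and differences are log2(intensity + 21.9) of the later time minus the earlier, with the standard error of the fit after ±. Each was tested with limma over all 13576 tested probe sets, and a change is called at a Benjamini-Hochberg adjusted p below 0.05. The moderated F-test over the 4 times called 15 of the 20 tested cyclin and CDK probe sets, while it called 40.1% of all tested probe sets. At 6 h against 0 h, 8 were called higher (8.65% of all probe sets) and 0 lower (9.33%), beside 18.0% of all probe sets in either direction. Of these 8, 3 were of Ccnd1, 4 of Ccnd2 and 1 of Ccnd3. At 12 h against 0 h, 4 were higher (12.1%) and 0 lower (11.9%). For 24 h against 0 h, 4 were higher (17.1%) and 5 lower (15.8%), so 45.0% were called where 32.9% of all probe sets were. The 4 of 20 called at 12 h are no larger a share than the 24.0% of all probe sets.

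Between the later times the calls ran downward. At 12 h against 6 h, 0 were higher (4.61%) and 6 lower (3.71%, or 8.32% either way), all of them Ccnd2. For 24 h against 12 h, 0 were higher (3.77%) and 4 lower (3.11%, or 6.88% either way). At 24 h against 6 h, 1 was higher (13.6%) and 11 lower (11.3%, or 24.9% either way). Of these 11, 7 were of Ccnd2, 2 of Ccna2 and 1 each of Ccnd3 and Cdk1. The median difference over the 20 probe sets was 0.30 at 6 h against 0 h, 0.03 at 12 h and -0.17 at 24 h, beside medians of 0.0026, 0.00529 and 0.0155 over all probe sets. It was -0.47 at 24 h against 6 h, where the median of all probe sets was 0.00921. These counts and medians take each probe set once, so Ccnd2, with 7, weighs most, and they do not describe a typical gene. With each array centred on its median the split between higher and lower was 4 and 1 at 12 h against 0 h, 3 and 7 at 24 h against 0 h, 0 and 4 at 24 h against 12 h and 0 and 11 at 24 h against 6 h. Calls that compare with 0 h share the 0 h arrays, and those that compare with 6 h share the 6 h arrays.

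**Figure D1:**
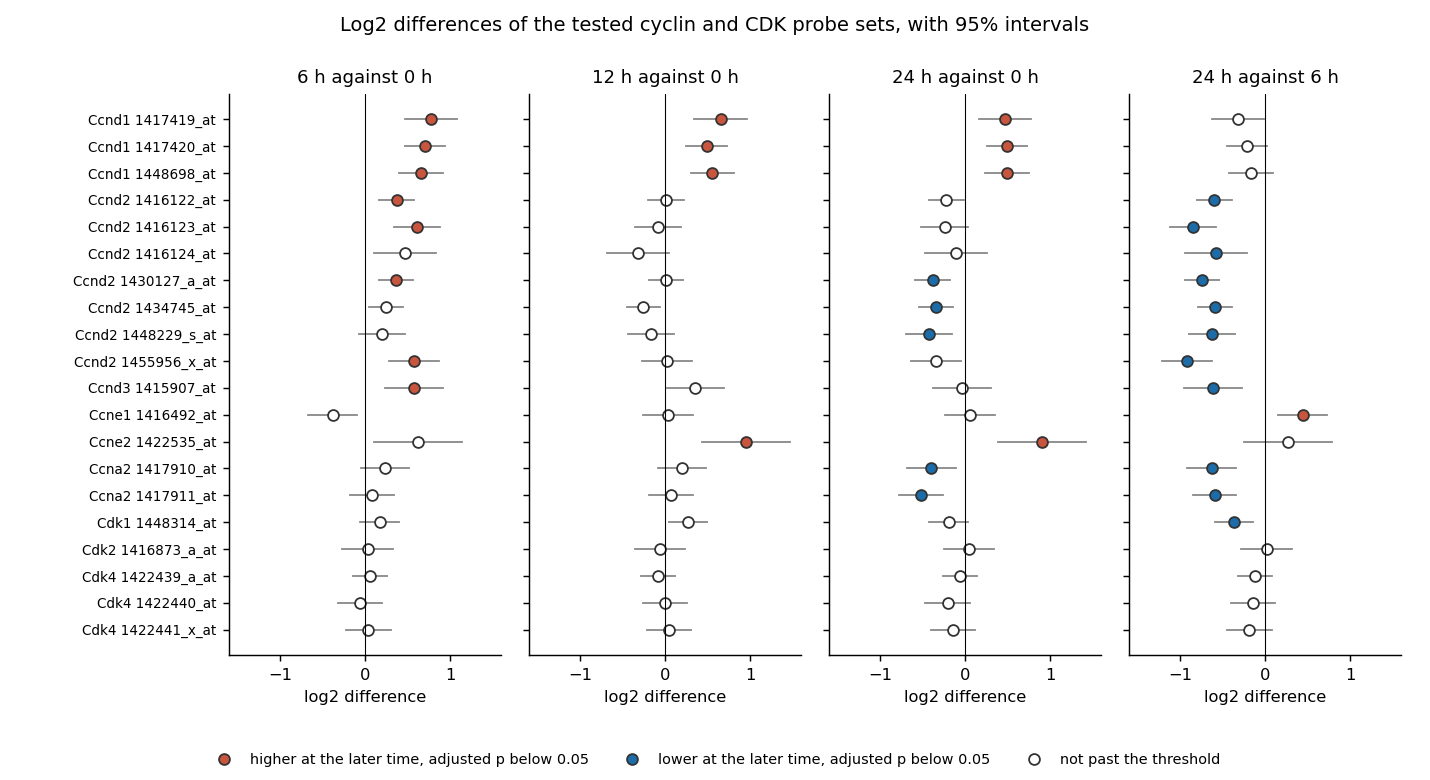
Log2 differences (horizontal axes) of the 20 tested cyclin and CDK probe sets in 4 comparisons, as points with 95% confidence intervals; filled points passed the threshold, red for higher and blue for lower at the later time. Ccnd1 lies right of 0 in the first 3 panels, and the 7 Ccnd2 probe sets lie left of 0 in the panel of 24 h against 6 h.

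Ccnd1, cyclin D1, the D-type cyclin best known as a sensor of growth factor signals, was higher at each later time than at 0 h. Its brightest probe set, 1417420_at, had 2925.2 and 2930.5 units at 0 h, 5247.4 and 4353.1 at 6 h, 3864.6 and 4385.1 at 12 h, and 4194.0 and 4055.3 at 24 h. Every array of a later time lay above both 0 h arrays, and the 6 h arrays overlapped those of 12 h but not those of 24 h. The difference from 0 h was 0.70 ± 0.11 at 6 h (1.63-fold, adjusted p = 0.00163), 0.49 ± 0.11 at 12 h (1.40-fold, adjusted p = 0.00792) and 0.49 ± 0.11 at 24 h (1.41-fold, adjusted p = 0.00528).

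The other Ccnd1 probe sets followed the same course. Probe set 1417419_at had 1766.6 and 1690.9 units at 0 h, 3367.8 and 2634.8 at 6 h, 3100.2 and 2394.2 at 12 h, and 2343.3 and 2441.2 at 24 h. Probe set 1448698_at had 2824.2 and 2637.9 units at 0 h, 4700.5 and 3971.9 at 6 h, 4419.6 and 3659.8 at 12 h, and 3976.6 and 3742.4 at 24 h. On both, no array of a later time overlapped 0 h. Over the 3 probe sets the differences from 0 h were 0.66 to 0.78 at 6 h, 0.49 to 0.65 at 12 h and 0.46 to 0.50 at 24 h, all called, with adjusted p at most 0.0249. The order of the means was 6 h, 12 h, 24 h and 0 h on each (12 h and 24 h nearly equal on 1417420_at), and neither neighbouring pair of later times differed by the test, with adjusted p from 0.251 to 0.992. The 6 h calls held under each of 17 alternatives, while those at 12 h were lost without 1 of the 0 h or 12 h arrays (largest adjusted p 0.068, without 12 h replicate 2, for 1417420_at). At 24 h the call of 1417420_at held under all 17, that of 1448698_at was lost under 2 and that of 1417419_at under 7 (largest adjusted p 0.129, without 0 h replicate 2).

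Ccnd2, cyclin D2, a D-type cyclin that also answers to gonadotropin signals in the gonad of the mouse, was higher at 6 h than at 0 h on 4 of its 7 probe sets and lower at 24 h than at 6 h on all 7. Its brightest probe set, 1416122_at, had 8059.4 and 7919.8 units at 0 h, 10844.9 and 9873.8 at 6 h, 8424.0 and 7686.7 at 12 h, and 7075.3 and 6627.3 at 24 h. The 6 h arrays were the highest, the 12 h arrays enclosed those of 0 h, and the 24 h arrays were below all others. The difference for 1416122_at was 0.37 ± 0.09 at 6 h against 0 h (adjusted p = 0.0192), 0.01 ± 0.09 at 12 h against 0 h (adjusted p = 0.95) and -0.22 ± 0.09 at 24 h against 0 h (adjusted p = 0.0941). Between 24 h and 6 h it was -0.59 ± 0.09 (0.66-fold, adjusted p = 0.00104).

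Over the 7 Ccnd2 probe sets the differences at 6 h against 0 h were 0.20 to 0.61, and on 6 of 7 the 6 h arrays lay above the 0 h arrays. Those at 24 h against 6 h ran from -0.91 to -0.57, with the 24 h arrays below the 6 h arrays on each. The -0.91 was on 1455956_x_at, whose suffix marks probes that can bind other transcripts. Its 6 h arrays were far apart, at 7045.9 and 5049.6 units. The 7 differences at 24 h against 0 h ran from -0.42 to -0.11 and 3 were called lower. These 3 were 1430127_a_at, with 3726.0 and 3481.8 units at 24 h against 4561.0 and 4844.3 at 0 h (-0.38 ± 0.09, adjusted p = 0.00791), 1434745_at (-0.34 ± 0.09, adjusted p = 0.0134) and 1448229_s_at (-0.42 ± 0.12, adjusted p = 0.0211). The last has a suffix that marks probes shared between transcripts.

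The fall at 24 h against 6 h was called under each of 17 alternatives on 6 of the 7 probe sets, and on 1416124_at it was lost under 5 (largest adjusted p 0.186). Of the 4 calls at 6 h none held under all 17, and that of 1416123_at, with 666.7 and 644.4 units at 6 h against 457.4 and 389.3 at 0 h (0.61 ± 0.12, adjusted p = 0.00728), was lost under 1 (adjusted p 0.0838). The 6 calls at 12 h against 6 h were each lost under 1 to 10 alternatives. The 3 calls at 24 h against 0 h were lost under 2, 4 and 5 alternatives.

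Ccnd3, cyclin D3, which completes the D-type family, had 754.9 and 665.5 units at 0 h, 1278.2 and 889.5 at 6 h, 867.2 and 961.6 at 12 h, and 700.5 and 683.8 at 24 h. Both 6 h arrays and both 12 h arrays lay above 0 h, and the 24 h arrays lay within the range of 0 h. It was higher at 6 h against 0 h (0.58 ± 0.15, 1.49-fold, adjusted p = 0.0254) and lower at 24 h against 6 h (-0.61 ± 0.15, adjusted p = 0.0146), while at 24 h against 0 h the difference was -0.03 with a 95% confidence interval of -0.37 to 0.31. The 6 h arrays were far apart: without 6 h replicate 1 the difference from 0 h was 0.32 (adjusted p 0.127), and the call was lost under 6 of 17 alternatives, with adjusted p from 0.00169 to 0.17. The call at 24 h against 6 h was lost under 3, with a difference of -0.35 (adjusted p 0.0804) without 6 h replicate 1.

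**Figure D2:**
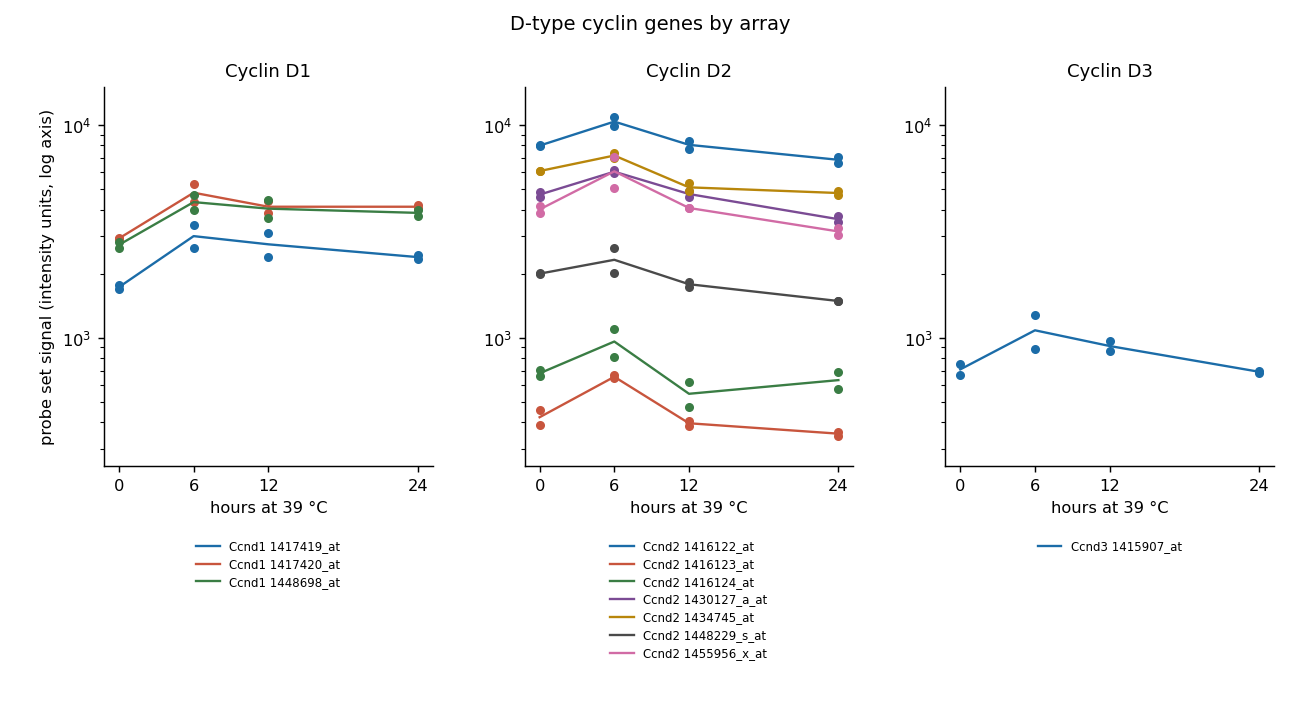
Signal of the D-type cyclin probe sets (vertical log axis, intensity units) against hours at 39 °C, with a point for each of 2 arrays per time and lines through the means. Ccnd1 is above its 0 h level at 6, 12 and 24 h, and Ccnd2 peaks at 6 h and is lowest at 24 h on its brightest probe set.

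Ratios between the D cyclins were taken within each array. The log2 ratio of Ccnd1 to Ccnd2, each by its brightest probe set and set to 0 at the mean of the 0 h arrays, was -0.01 and 0.01 at 0 h, 0.40 and 0.26 at 6 h, 0.32 and 0.64 at 12 h, and 0.69 and 0.74 at 24 h. The ratio of Ccnd1 to Ccnd3 was -0.09 and 0.09 at 0 h, 0.01 and 0.25 at 6 h, 0.12 and 0.15 at 12 h, and 0.53 and 0.52 at 24 h. At 24 h both ratios were above every array of 0 h, 6 h and 12 h. These ratios, 2 of 10 that were computed, were chosen after the values were seen and were not tested.

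Of the E-type cyclins, Ccne2 was higher at 12 h and 24 h than at 0 h, and Ccne1 was not called against 0 h. Ccne2, cyclin E2, had 419.4 and 372.1 units at 0 h, 452.0 and 851.5 at 6 h, 720.2 and 846.5 at 12 h, and 659.4 and 865.9 at 24 h. All 12 h and 24 h arrays lay above 0 h without overlap, and the 6 h arrays were split, with replicate 1 near 0 h and replicate 2 near the later times. It was higher at 12 h (0.95 ± 0.24, 1.93-fold, adjusted p = 0.0141) and at 24 h (0.90 ± 0.24, 1.86-fold, adjusted p = 0.0129) against 0 h. At 6 h the difference was 0.63 ± 0.24 (adjusted p = 0.0896).

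For Ccne2 at 6 h against 0 h, the difference was 1.07 without 6 h replicate 1 (adjusted p 0.00349), and the replicate number as a block gave adjusted p 0.0441. The 12 h call was lost under 3 of 17 alternatives, with a largest adjusted p of 0.0965 without 0 h replicate 2. The 24 h call was lost under 2, with 0.114 without 24 h replicate 2.

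Ccne1, cyclin E1, the other E-type cyclin, had 315.2 and 337.2 units at 0 h, 257.7 and 232.9 at 6 h, 320.8 and 349.0 at 12 h, and 345.1 and 335.3 at 24 h. Its 6 h arrays lay below all others, and the arrays of the other times overlapped. The F-test missed the threshold (adjusted p = 0.0513), as did 6 h against 0 h (-0.38 ± 0.13, adjusted p = 0.0691), and 24 h against 6 h was called higher (0.44 ± 0.13, adjusted p = 0.0328). That call was lost under 9 of 17 alternatives, among them quantile normalization (adjusted p 0.0691) and centring on the array medians (adjusted p 0.0705), with adjusted p from 0.0265 to 0.156 over all. The log2 ratio of Ccne2 to Ccne1, set to 0 at the mean of 0 h, was 0.13 and -0.13 at 0 h, 0.50 and 1.52 at 6 h, 0.85 and 0.97 at 12 h, and 0.63 and 1.05 at 24 h, as a description.

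Ccna2, cyclin A2, the cyclin of S phase and G2 in somatic cells, was lower at 24 h than at each earlier time, while no comparison among 0, 6 and 12 h was called. Probe set 1417910_at had 2750.4 and 2636.1 units at 0 h, 3690.9 and 2713.2 at 6 h, 3214.0 and 2982.5 at 12 h, and 2085.0 and 1999.5 at 24 h. Probe set 1417911_at had 2528.2 and 2575.9 units at 0 h, 3049.9 and 2372.4 at 6 h, 2735.1 and 2628.8 at 12 h, and 1828.2 and 1725.2 at 24 h. On both, the 24 h arrays lay below all 6 others, and the 6 h arrays were wide apart and enclosed at least 1 array of each of the other early times.

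The difference at 24 h against 0 h was -0.40 ± 0.13 on 1417910_at (0.76-fold, adjusted p = 0.0365) and -0.52 ± 0.12 on 1417911_at (0.70-fold, adjusted p = 0.00593). Against 12 h, 24 h differed by -0.60 ± 0.13 (adjusted p = 0.0223) and -0.59 ± 0.12 (adjusted p = 0.0153). Against 6 h, 24 h differed by -0.63 ± 0.13 (adjusted p = 0.00499) and -0.59 ± 0.12 (adjusted p = 0.0038). Only this last pair of calls held under each of 17 alternatives. At 24 h against 0 h the call of 1417911_at was lost without 24 h replicate 2 (adjusted p 0.0533) and that of 1417910_at under 7 alternatives (largest adjusted p 0.176, without 0 h replicate 1), and at 24 h against 12 h the calls were lost under 7 and 5.

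Cdk1, the kinase of entry into mitosis, had 5201.1 and 5224.6 units at 0 h, 6390.4 and 5380.8 at 6 h, 6472.3 and 6098.0 at 12 h, and 4730.9 and 4390.1 at 24 h. Its arrays of 6 h and 12 h lay above 0 h and its 24 h arrays below. It was lower at 24 h against 12 h (-0.46 ± 0.10, 0.73-fold, adjusted p = 0.0235) and at 24 h against 6 h (-0.36 ± 0.10, adjusted p = 0.0243). Against 0 h it was not called at 6 h (0.17, adjusted p = 0.281), 12 h (0.27, adjusted p = 0.08) or 24 h (-0.19, adjusted p = 0.177, with a 95% interval of -0.42 to 0.03).

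The Cdk1 calls were lost under 8 of 17 alternatives at 24 h against 12 h (adjusted p from 0.00383 to 0.191) and under 6 at 24 h against 6 h (from 0.00285 to 0.163). With only 12 h and 0 h in the fit, 12 h was called higher (adjusted p 0.0195), and with only 24 h and 0 h, 24 h was called lower (adjusted p 0.0473). Cdk1 and Ccna2 had the highest correlation of any pair of the genes of the set, with r = 0.952 over 8 arrays, which share times and scaling. Their log2 ratio, Ccna2 by its brightest probe set over Cdk1, was set to 0 at the mean of the 0 h arrays. It was 0.03 and -0.03 at 0 h, and 0.16 and -0.03 at 6 h. At 12 h it was -0.06 and -0.08, and at 24 h -0.23 and -0.18.

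Cdk2, the partner of cyclins E and A, had 848.4 and 958.8 units at 0 h, 903.6 and 936.4 at 6 h, 998.0 and 749.2 at 12 h, and 926.9 and 937.1 at 24 h. The times overlapped throughout. No comparison called it, and at 24 h against 0 h the difference was 0.05 with a 95% interval of -0.25 to 0.34, so a change of the size seen for Ccna2 on 1417910_at would lie outside the interval.

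Cdk4, the partner of the D cyclins, was not called on any of its 3 probe sets in any comparison. The brightest, 1422441_x_at, whose suffix marks probes that can bind other transcripts, had 5877.2 and 5594.6 units at 0 h, 6440.0 and 5391.5 at 6 h, 6443.6 and 5412.5 at 12 h, and 5494.5 and 4896.7 at 24 h. Probe set 1422439_a_at had 3459.6 and 3278.6 units at 0 h, 3660.6 and 3370.0 at 6 h, 3160.2 and 3190.4 at 12 h, and 3172.3 and 3295.3 at 24 h. On these 2 the arrays of 0 h overlapped those of the later times, except that the 24 h arrays of 1422441_x_at and the 12 h arrays of 1422439_a_at lay just below them. The 95% intervals at 24 h against 0 h were -0.26 to 0.14 on 1422439_a_at, -0.46 to 0.06 on 1422440_at and -0.40 to 0.12 on 1422441_x_at. Where Ccnd1 was 0.66 to 0.78 higher at 6 h, the upper ends of the Cdk4 intervals were 0.26, 0.20 and 0.30.

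Cdk6, the other kinase that D cyclins activate, was measured by 1 dim probe set, 1460291_at, with values between 14.0 and 87.9 units over the 8 arrays. Its mean was under the filter, and no detection calls were used here, so its level and course were not measured well enough for a test.

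**Figure D3:**
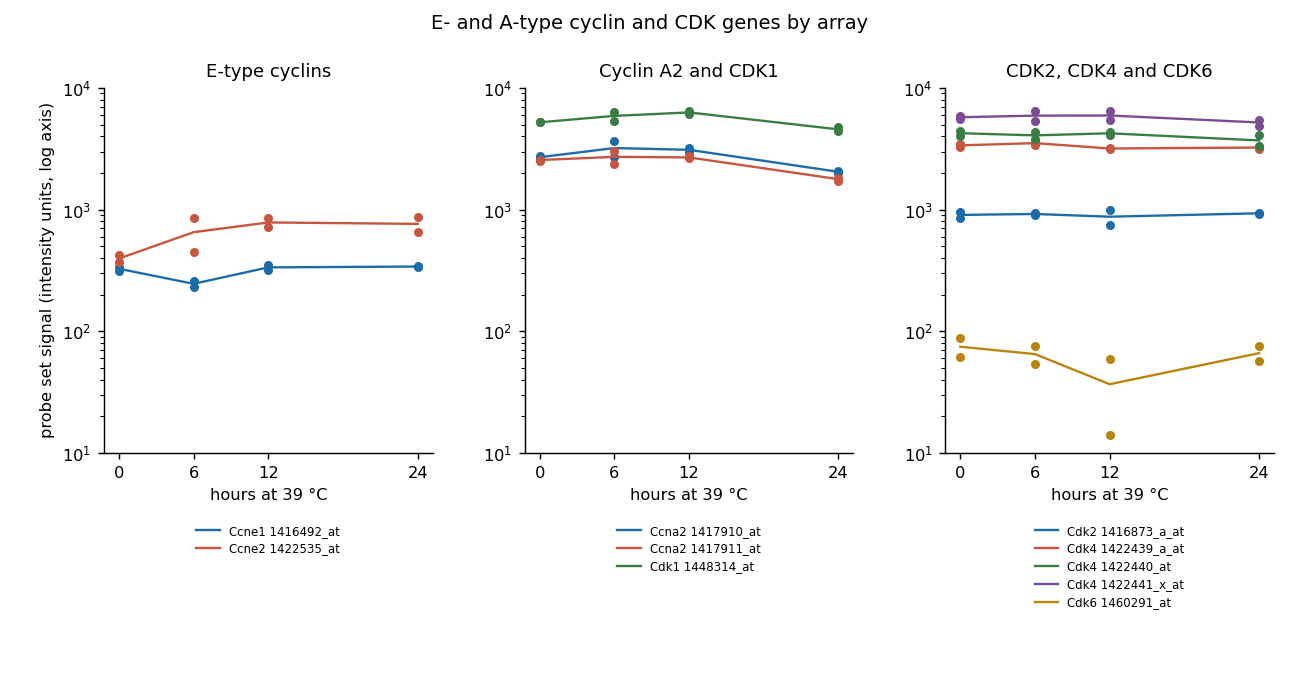
Signal of the E-type cyclin, cyclin A2 and CDK probe sets (vertical log axis, intensity units) against hours at 39 °C, with a point for each of 2 arrays per time and lines through the means. Ccne2 stands at 659.4 units or more on the 12 h and 24 h arrays, both Ccna2 probe sets are lowest at 24 h, and the Cdk6 probe set is the dimmest drawn.

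The median gap between the arrays of a time, over the 20 tested cyclin and CDK probe sets, was 0.08, 0.25, 0.12 and 0.08 on the log2 scale for 0, 6, 12 and 24 h. Over all tested probe sets it was 0.12, 0.19, 0.15 and 0.12, while the correlation of same-time arrays was lowest at 12 h (r = 0.9788), with 0.9795 at 6 h. Of the 20 probe sets, 11, 15, 13 and 15 were higher on replicate 1 than on replicate 2 for the same times, where 49.7%, 51.9%, 47.5% and 50% of all probe sets were. The 5 that were higher on replicate 2 at 6 h were Ccne2, Cdk2 and the Ccnd2 probe sets 1416124_at, 1430127_a_at and 1448229_s_at.

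By correlation over the 8 arrays, taken over 5013 probe sets of other genes that the F-test called, the closest to Ccnd1 were Ogfod2, Rabep2 (each r = 0.987) and Atp5h (r = 0.986). The closest to Ccnd2 were Emc6, Tpm1 and Dst (r = 0.981, 0.979 and 0.972), and to Ccnd3 a pair of Atxn7l3b probe sets (r = 0.97 and 0.952) and Dynll1. Ccne2 was closest to Helz, Snrnp48 and Chfr (r = 0.989, 0.973 and 0.97). Ccna2 was closest to Id1, Jagn1 and Id3 (r = 0.983, 0.981 and 0.979), of which Id1 and Id3 encode inhibitors of differentiation that bind helix-loop-helix factors. Cdk1 was closest to Rpl11, Banf1 and Cenpn (r = 0.991, 0.986 and 0.984), a ribosomal protein, a chromatin protein and a centromere protein. These correlations describe 8 arrays that share times and scaling.

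A list of 62 other genes was not confined to G1 and S control and took in G2 and M cyclins and other cyclins and CDKs. Of these, 58 were on the array under 1 symbol and 56 were tested, each by its brightest probe set. The F-test called 24 of them, beside 40.1% of all probe sets. At 6 h against 0 h, 4 were higher (8.65% of all probe sets) and 6 lower (9.33%), at 12 h 10 (12.1%) and 7 (11.9%), and at 24 h 10 (17.1%) and 8 (15.8%). The list was chosen with earlier results of these data known.

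Of the 6 tested CDK inhibitors, 2 were higher at 24 h against 0 h (17.1% of all probe sets) and 0 lower (15.8%). The F-test called 4 of them, beside 40.1% of all probe sets, and its call of Cdkn2b (adjusted p = 0.0488) was lost under 11 of 16 alternatives. Cdkn1a, which encodes the inhibitor p21 and is a p53 target, had 912.1 and 808.1 units at 0 h, 6203.8 and 6461 at 6 h, 7347.3 and 7324.4 at 12 h, and 8581.9 and 8341.5 at 24 h. It was 2.85, 3.06 and 3.27 higher than at 0 h at 6, 12 and 24 h, each ± 0.09 (largest adjusted p = 1.98e-08). Cdkn1b, which encodes p27, had 936.2 and 946.5 units at 24 h against 696.9 and 714.4 at 0 h (0.40 ± 0.11, adjusted p = 0.0162), a call lost under 5 of 17 alternatives. Cdkn2d, which encodes p19, an inhibitor of CDK4 and CDK6, was higher at 12 h against 0 h (0.45 ± 0.13, adjusted p = 0.0234, lost under 4), and at 6 h and 24 h it was not called against 0 h. Cdkn2a and Cdkn2c were not called in any comparison.

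Among the targets of the CDKs, Rb1, the retinoblastoma gene, had 107.3 and 89.8 units at 0 h, 86.6 and 130.9 at 6 h, 204.4 and 221.2 at 12 h, and 419.5 and 468.8 at 24 h. Its 12 h and 24 h arrays lay above all earlier ones, by 0.97 ± 0.20 at 12 h (adjusted p = 0.00484) and 1.95 ± 0.20 at 24 h (adjusted p = 3.29e-05) against 0 h. Of the 10 tested pocket protein and E2F genes, 2 were called by the F-test, Rb1 and E2f5, beside 40.1% of all probe sets. The E2f5 call (adjusted p = 0.0466) was lost under 9 of 15 alternatives. E2f1, Rbl1 and Tfdp1 were called in no comparison.

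Of regulators upstream of the D cyclins, all 6 were called by the F-test, beside 40.1% of all probe sets. Of these calls, that of Egr1 (adjusted p = 0.0391) was lost under 9 of 16 alternatives, with a largest adjusted p of 0.25, that of Ctnnb1 (adjusted p = 0.0158) under 6 of 16, and that of Fos (adjusted p = 0.0139) under 5 of 15. Myc had 776.5 and 633.9 units at 24 h against 1278.4 and 1112.3 at 0 h, and was lower at 6 h (-0.75), 12 h (-0.65) and 24 h (-0.75, each ± 0.13, largest adjusted p = 0.00357), with the 12 h call lost without 0 h replicate 1 (adjusted p 0.0529). Jun, a component of AP-1, was lower at 6 h (-0.71 ± 0.10, adjusted p = 0.00118) and 12 h (-0.48 ± 0.10, adjusted p = 0.00675, lost without 0 h replicate 1) and higher at 24 h (0.53 ± 0.10, adjusted p = 0.00257) against 0 h. Ctnnb1, beta-catenin, was higher at 24 h (0.42 ± 0.09, adjusted p = 0.00577, lost under 2 alternatives). Foxm1, a factor of G2 and M phase transcription, had 210.5 and 261.9 units at 24 h against 495 and 424.6 at 0 h (-0.90 ± 0.14, adjusted p = 0.000668).

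The cyclins outside the set were mixed. Ccng1 and Ccng2, the cyclin G genes, of which Ccng1 is a p53 target, were 2.67 ± 0.09 and 1.76 ± 0.12 higher at 24 h against 0 h (adjusted p = 1.24e-08 and 2.41e-06). Ccnb2, a mitotic cyclin, had 1016.4 and 999.4 units at 6 h against 1388.6 and 1396.4 at 0 h (-0.46 ± 0.10, adjusted p = 0.00967), at the time when the D cyclins were higher, and the call was lost without either 0 h array. Ccnf, a cyclin that is part of a ubiquitin ligase, was higher at 6 h (0.71 ± 0.13, adjusted p = 0.00446, lost without 0 h replicate 1). Of the genes for cyclin and inhibitor turnover, 4 of 12 were lower at 24 h against 0 h (15.8% of all probe sets) and 0 higher (17.1%), beside 32.9% either way. Among the 4 were Cks2, a small CDK-binding protein (-0.38 ± 0.09, adjusted p = 0.00674, lost under 3), and Cdc20, an activator of the anaphase-promoting complex (-0.32 ± 0.09, adjusted p = 0.0206, lost under 5). Of the 8 genes that activate or oppose CDKs, Cdc25c, a phosphatase that activates CDK1, was lower at 6 h against 0 h (-1.22 ± 0.24, adjusted p = 0.00584, lost without 0 h replicate 2). At 24 h against 0 h, 1 of the 8 was higher (17.1% of all probe sets), Wee1, a kinase that restrains CDK1 (0.43 ± 0.13, adjusted p = 0.0288, lost under 5). Lower were 2 (15.8%), Cdc25c (-0.73, adjusted p = 0.0358, lost under 6 of 16) and Cdk7 (-0.41, adjusted p = 0.0246, lost under 3 of 17).

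**Figure D4:**
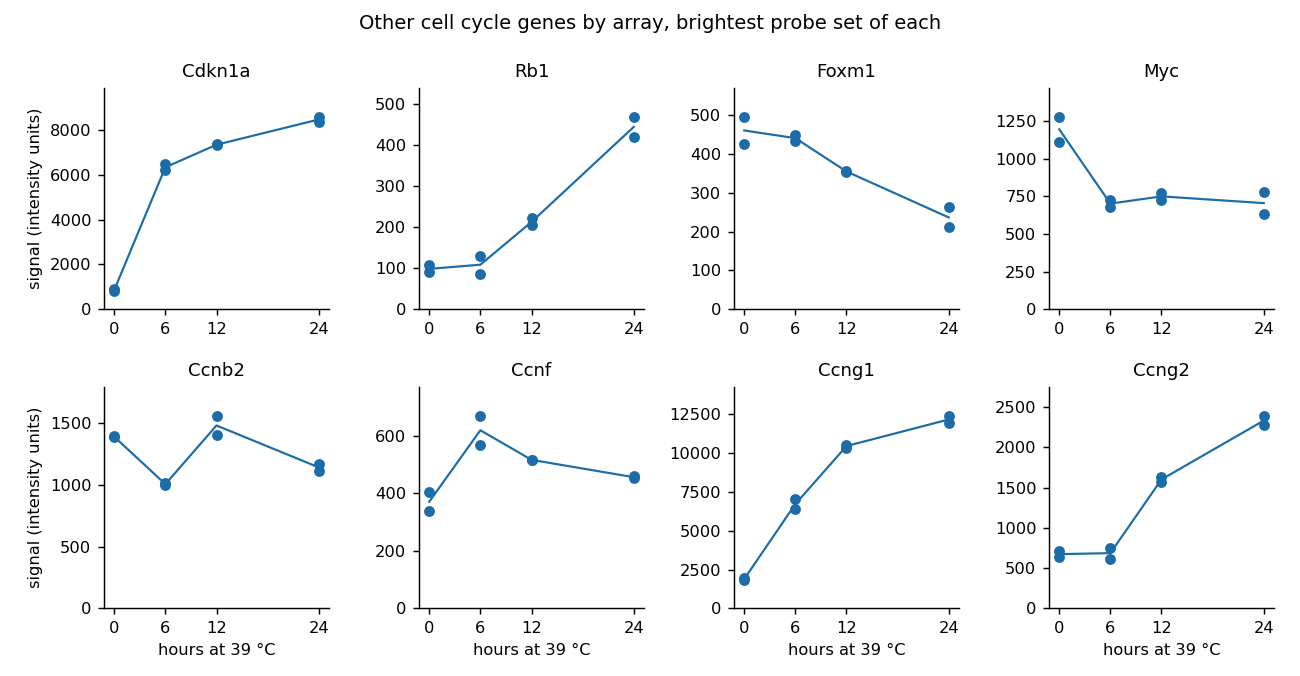
Signal of 8 other cell cycle genes (vertical axes from 0, intensity units, a scale for each gene) against hours at 39 °C, with a point for each of 2 arrays per time and lines through the means. Cdkn1a, Ccng1 and Rb1 are highest at 24 h, Foxm1 is lowest at 24 h, and Ccnb2 is lowest at 6 h, when Ccnf is highest.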

How the data were processed

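Total RNA of TTE3 cells was hybridised to Affymetrix 430A mouse arrays, 1 sample each, and samples were grouped by the hours in their titles. The deposited values are linear probe set intensities, already scaled to a common mean when deposited (500.18 to 500.2 on every array after 2% was trimmed at each end), as the values show, so a change in total mRNA per cell is not visible. The software is not given in the sources used here, and detection calls were not used. The members, gene lists and tests were chosen with earlier results of these data known.

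Of 22690 rows, 64 control probe sets were left out. Of the other 22626, 20380 had 1 gene symbol in the platform annotation, 691 several and 1555 none, and genes were named only from those with 1. Deposited intensities were taken as log2(intensity + 21.9), the offset being the 20th percentile of all values, which understates changes of dim genes. The 13576 probe sets with a mean log2 of at least 6.584 (the 40th percentile) were tested. In R 4.3.3, limma (version 3.58.1) fitted all 8 arrays together with the 4 times as groups, using lmFit and then eBayes with trended variance (4 residual, 7.22 prior degrees of freedom), and gave an F-test and 6 2-sided contrasts, adjusted by Benjamini-Hochberg over all tested probe sets. The model was also run on simulated data with known changes, an outcome that is not reported here. Precision is limited by 2 arrays per time.

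All probe sets of the set were described. Other genes of the list were taken by their brightest probe set and given as counts. They were named where a test called them or the text needs them. Alternatives were the offset, the filter, the normalization, the variance model, a replicate block, leaving out each array, and fitting only the times compared.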

Additional observations from a re-analysis of the deposited data

How the results depend on the processing

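Of 58 calls for the cyclin and CDK probe sets, 18 held under every alternative (17 for a pair of times, 16 for the F-test): 6 in the F-test, the 3 of Ccnd1 at 6 h against 0 h, 1 of Ccnd1 at 24 h against 0 h, and 8 of Ccnd2 and Ccna2 at 24 h against 6 h. None of the 140 results reversed, which was counted only for a difference called with or without the alternative. F-test results have no direction, and changes of sign in uncalled differences were not counted. Of 2360 values, 2150 stayed on their side of the threshold, 168 lost a call and 42 gained it.

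Without a variance trend, the numbers of cyclin and CDK probe sets called were 4 at 6 h against 0 h, 2 at 12 h against 6 h and 0 at 24 h against 12 h, and over all probe sets 606 at 12 h against 6 h and 369 at 24 h against 12 h. With no filter they were 3 at 12 h against 6 h and 1 at 24 h against 12 h, and over all probe sets 644 and 529. With only the times compared they were 5 at 6 h, 7 at 12 h and 12 at 24 h against 0 h, where the main fit had 8, 4 and 9. They were 1 at 12 h against 6 h, 5 at 24 h against 12 h and 10 at 24 h against 6 h, where the main fit had 6, 4 and 12. At 12 h against 6 h, 240 of all probe sets were then called. Fitting only the times compared uses fewer arrays, and no filter means more tests. The cause of these shifts, which went both ways, was not tested.

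Leaving out 1 array at a time gave, for all probe sets and for the cyclin and CDK probe sets, 3303 to 6608 and 9 to 15 calls in the F-test. It gave 836 to 3005 and 3 to 11 at 6 h, 1523 to 4148 and 0 to 7 at 12 h, and 2595 to 5191 and 2 to 11 at 24 h, all against 0 h. It gave 330 to 1552 and 1 to 7 at 12 h against 6 h, 84 to 1645 and 0 to 6 at 24 h against 12 h, and 1746 to 3827 and 8 to 13 at 24 h against 6 h. A time left with 1 array is assumed to vary like the others.

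Centring arrays on their medians moved the median of all probe sets at 24 h against 0 h to -0.0879 (0.0155 as deposited). The split of all calls into higher and lower was then 1317 and 1943 at 12 h against 0 h (1646 and 1611 as deposited), 1721 and 2865 at 24 h against 0 h (2326 and 2146), 373 and 510 at 24 h against 12 h (512 and 422), and 1402 and 2057 at 24 h against 6 h (1847 and 1530).

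The replicate numbers mark no shared culture in the labels, and same-numbered arrays of a pair of times deviated together with r between 0.0496 and 0.18. With the replicate block, 9 cyclin and CDK probe sets were called at 6 h against 0 h and 5 at 12 h against 0 h, against 8 and 4 without it, the added calls being Ccne2 and Ccnd2 1434745_at, and none was lost. Depth of signal limits Cdk6 most, which was too dim to test.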
